A study of Mus musculus with 2 samples.

Results

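CUT&RUN regions of ELF3 and NFKB2 were examined around 6 genes of the AP-1 and immediate early class, Fos, Jun, Junb, Fosl1, Atf3 and Myc. The cells were primary renal tubular epithelial cells from the kidney of wild type mice, treated in culture with TNFα + IFNγ, and CUT&RUN uses a nuclease tethered to an antibody to release the DNA around a bound protein. The data were 2 libraries, 1 with an ELF3 antibody and 1 with an NFKB2 antibody. Both were from treated cells, so no value compares treated with untreated cells. Members were all deposited regions overlapping a window of each gene with about 20 kb on either side: 30 of 68319 ELF3 regions and 23 of 14217 NFKB2 regions, in 281 kb of windows. Each antibody has a single library, so no value has a replicate check. The 95% intervals given below, exact Poisson for fragments and exact binomial for shares and ratios, cover counting error only.

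Immediate early genes are those switched on first after a stimulus, without new protein synthesis. FOS and JUN proteins pair through leucine zippers into AP-1, which binds DNA and relays growth factor, stress and cytokine signals; ATF3 is a stress-induced member of the same bZIP class, and MYC is a basic helix-loop-helix factor that drives growth and proliferation. ELF3 is an epithelial ETS family factor, and NFKB2 is the p100 precursor of the p52 subunit of non-canonical NF-κB. In kidney tubules, Fos, Jun, Atf3 and Myc are known as early responders to injury.

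The signal of a region is given as the fragments at its summit, recovered from the deposited fold and −log10 p of each region. The lowest local background of a library is called the floor, and it was 1.22 fragments for ELF3 and 1.36 for NFKB2. Coordinates are those of the deposited lists, 1-based, with sequence names of GRCm39. The gene stretch is the middle of each window with 20 kb taken off either side, and its edges are known only to about 1 kb. No annotation of that build was used, so a region is placed by its distance from a gene stretch and is not assigned to a gene.

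Regions of both factors lay at or near the genes, so promoters are shown for the 4 of the 6 genes matched in the table of RefSeq promoters, Fos, Jun, Junb and Atf3. The sequences are the 250 bases before the annotated start, from RefSeq build GRCm38.p6, 5′ to 3′ on the strand of the gene, and capitals mark GGAA or its reverse complement, the ETS core. In that build they lie at chr12:85473640-85473889 (plus strand) for Fos, chr4:95052223-95052472 (minus) for Jun, chr8:84978749-84978998 (minus) for Junb and chr1:191183334-191183583 (minus) for Atf3. These positions cannot be set against the GRCm39 positions of the regions.
Fos promoter: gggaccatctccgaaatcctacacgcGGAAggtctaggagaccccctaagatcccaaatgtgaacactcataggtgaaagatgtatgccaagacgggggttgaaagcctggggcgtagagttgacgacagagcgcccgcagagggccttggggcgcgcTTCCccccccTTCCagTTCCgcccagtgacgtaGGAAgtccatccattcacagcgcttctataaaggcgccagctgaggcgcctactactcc
Jun promoter: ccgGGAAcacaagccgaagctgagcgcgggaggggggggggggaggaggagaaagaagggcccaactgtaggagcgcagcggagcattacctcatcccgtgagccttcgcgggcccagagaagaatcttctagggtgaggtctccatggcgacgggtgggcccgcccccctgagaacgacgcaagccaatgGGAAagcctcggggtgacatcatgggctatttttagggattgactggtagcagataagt
Junb promoter: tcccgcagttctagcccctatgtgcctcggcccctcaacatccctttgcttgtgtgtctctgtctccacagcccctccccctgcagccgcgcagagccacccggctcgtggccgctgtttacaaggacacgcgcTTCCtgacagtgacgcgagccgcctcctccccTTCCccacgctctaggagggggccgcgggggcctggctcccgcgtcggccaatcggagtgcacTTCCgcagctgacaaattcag
Atf3 promoter: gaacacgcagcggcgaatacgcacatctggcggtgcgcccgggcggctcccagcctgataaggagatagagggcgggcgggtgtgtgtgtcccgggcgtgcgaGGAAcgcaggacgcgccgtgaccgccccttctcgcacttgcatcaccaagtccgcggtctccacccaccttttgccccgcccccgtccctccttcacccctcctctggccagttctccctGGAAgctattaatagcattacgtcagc

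All 4 promoters held the ETS core, 5 times for Fos, 3 times for Junb and 2 times each for Jun and Atf3. It is a short motif, found in the same stretch of 93.4% of 32817 RefSeq promoters, with a median of 3 matches. A loose NF-κB form, GGG and CC with any 5 bases between them, was found on either strand in Fos (1 match), Jun (3, overlapping each other) and Atf3 (2, overlapping each other), and in 45.8% of all promoters. Neither TGANTCA, a consensus of the AP-1 site, nor TGACGTCA, a consensus of the cyclic AMP response element, was found in these 4 stretches. Of all promoters 6.75% and 1.55% held them. Only these exact letters were searched and variants were not counted, so the lack of a match does not mean that such sites are absent. The matches describe these letters and are not binding sites.

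Each of the 6 gene stretches carried 1 ELF3 region, and each of these 6 regions overlapped NFKB2. The edges are known only to about 1 kb, and with 1 kb added on each side the stretches carried 8 ELF3 regions, of which 7 overlapped NFKB2 (87.5%, 47.3 to 99.7); the 2 further regions lay by Fosl1 (shared) and Myc (not shared). Over the windows, 19 of 30 ELF3 regions overlapped an NFKB2 region by 1 bp or more (63.3%, 43.9 to 80.1), whereas 19.7% of all ELF3 regions did. In the other direction 22 of 23 NFKB2 regions lay on ELF3 (95.7%, 78.1 to 99.9), and the share over the whole NFKB2 list was 96.8%. Against only the 14217 ELF3 regions ranking highest by −log10 q, 8 of 23 NFKB2 regions lay on ELF3 (34.8%), against 53.4% of all NFKB2 regions; 10 of the 30 ELF3 regions were in that part, and 8 of them overlapped NFKB2, against 51.5%. Regions stood at 107 per Mb for ELF3 and 81.9 per Mb for NFKB2 in the windows, against 26.6 and 5.53 per Mb over autosomes and X. The regions covered 16.6% and 9.43% of the windows, against 1.83% and 0.282%. Windows around genes were set here against all sequence, deserts included, and how far gene density accounts for the difference was not tested.

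**Figure D1:**
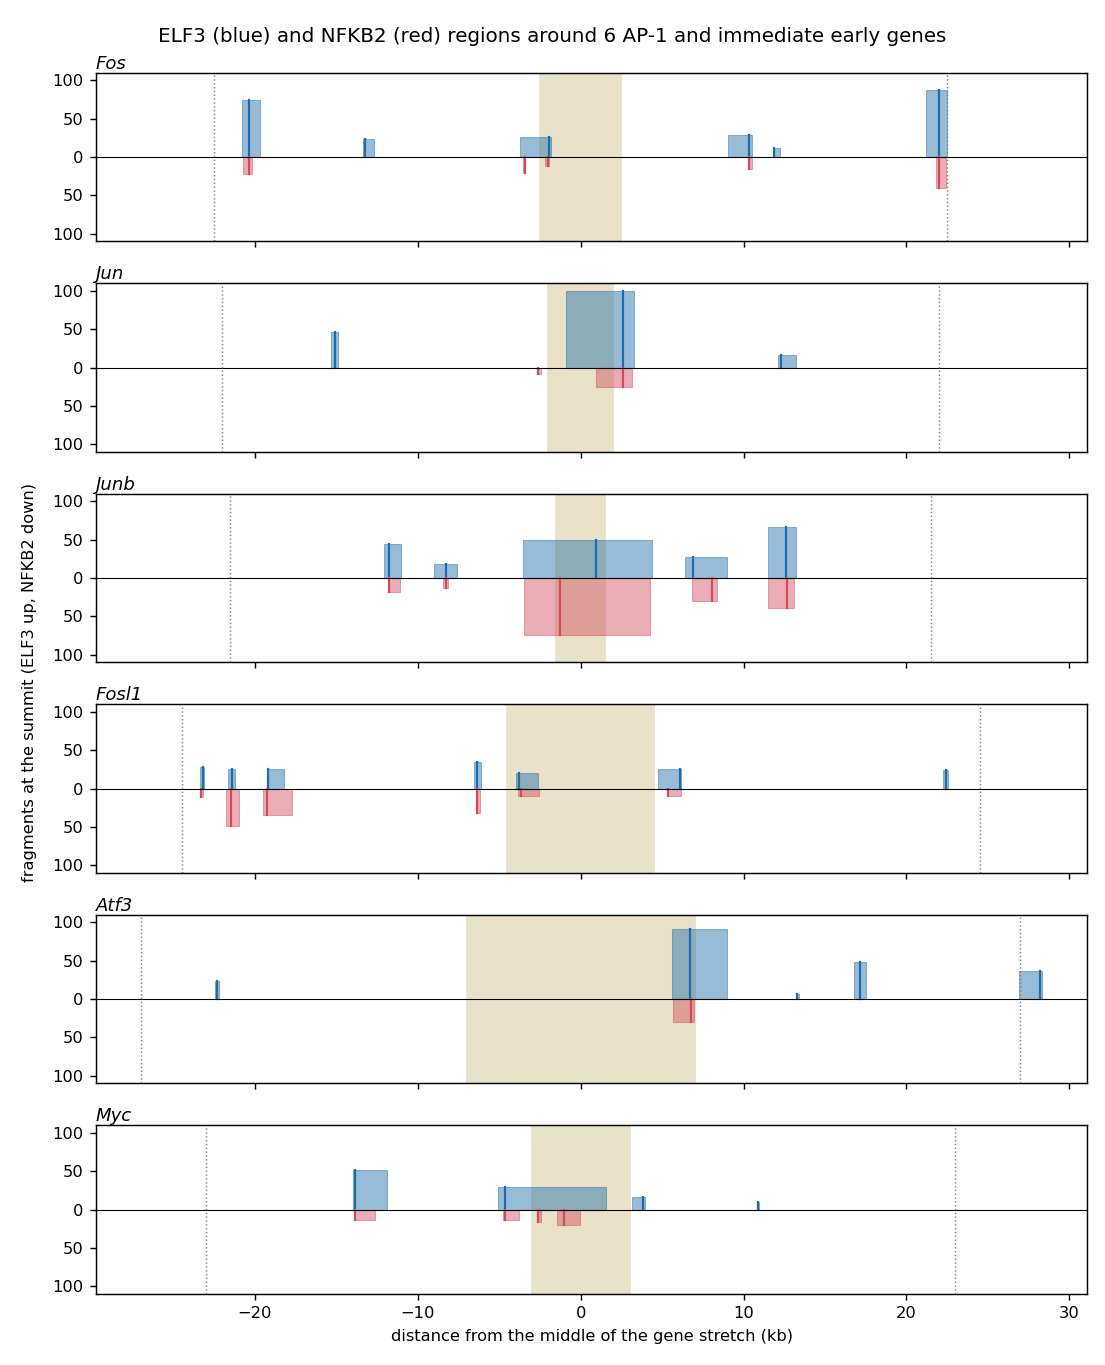
Regions in the 6 windows, with the distance from the middle of the gene stretch in kb on the x axis and fragments at the summit on the y axis, ELF3 upward and NFKB2 downward. A block spans a region and is as high as its summit value, the line in it marks the summit, shading marks the gene stretch and dotted lines the window; the tallest block is the ELF3 region of Jun with 100 fragments, and Junb has the tallest NFKB2 block with 75.

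Fos, the prototype FOS family partner in AP-1, had 6 ELF3 and 5 NFKB2 regions in its window. The summit of the ELF3 region on the gene stretch, at chr12:85518760-85520697, lay 0.583 kb inside the edge where the gene starts. That distance is less than the precision of that edge. The region had 26 fragments (17.0 to 38.1). It was a modest region, with a −log10 q above that of 44.2% of the ELF3 list, and its local background was 2.43 times the floor, a level reached also by 1 region each of Junb and Myc and exceeded by no member region. An NFKB2 region at chr12:85520317-85520542 had 12 fragments (6.20 to 21.0) with its summit 71 bp from that of ELF3. At a −log10 q of 1.35 it was close to the listing limit of 1.01, and its local background was 2.29 times the floor. A narrow NFKB2 region of 162 bp at chr12:85518945-85519106, on the same ELF3 region, had 21 fragments (13.0 to 32.1). It lay 0.894 kb outside the stretch, less than the precision of the edge.

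The strong Fos regions were at the ends of the window rather than at the gene. At chr12:85543691-85544977, 18.7 kb beyond the stretch, ELF3 had 87 fragments (69.7 to 107) and NFKB2 40 (28.6 to 54.5), with summits 32 bp apart. At chr12:85501731-85502841, 17.2 kb before the stretch, ELF3 had 75 (59.0 to 94.0) and NFKB2 22 (13.8 to 33.3), with summits 2 bp apart. Both ELF3 regions were higher than the one on the gene, with intervals that did not overlap its interval. Of the others, 1 was shared, with 29 ELF3 and 15 NFKB2 fragments, and 2 had ELF3 alone, with 23 and 12. The only other gene within 20 kb of Fos in RefSeq GRCm38.p6 was the lncRNA Gm38543.

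Fosl1, which encodes the FOS family member FRA-1, had the most regions, 7 for ELF3 and 6 for NFKB2, and 6 of the 7 ELF3 regions were shared. Those at the gene were weak: at chr19:5497556-5498875 ELF3 had 20 fragments (12.2 to 30.9) and NFKB2 10 (4.80 to 18.4). A similar region at chr19:5506259-5507679 began 0.258 kb past the other edge of the stretch, less than the precision of that edge, and had 26 ELF3 and 10 NFKB2 fragments. NFKB2 was highest on the side of lower coordinates. At chr19:5479731-5480514, 16.5 kb from the stretch, NFKB2 had 49 fragments (36.3 to 64.8) and ELF3 26 (17.0 to 38.1). At chr19:5482021-5483805 NFKB2 had 35 and ELF3 25, and at chr19:5495059-5495288, 1.71 kb from the stretch, they had 32 and 35.

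These NFKB2 regions near Fosl1 ranked high within their own list, with a −log10 q above that of 98.1%, 95% and 93.0% of NFKB2 regions, while the ELF3 regions under them stood at 62.3%, 52.1% and 75.1% of the ELF3 list. In RefSeq GRCm38.p6 Ccdc85b overlaps Fosl1, and Fibp, Ctsw and Efemp2 lie within 20 kb on the side of higher coordinates. On the side of lower coordinates, where these NFKB2 regions lie, the genes within 20 kb are the pseudogenes Gm25432 and Gm31070. ELF3 alone was found at 1 region, with 24 fragments, 17.8 kb from the stretch.

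Jun, the central JUN family subunit of AP-1, had the strongest ELF3 region of all windows. At chr4:94938117-94942245 it spanned 4129 bp and 72.1% of the gene stretch and reached 100 fragments (81.4 to 122), above 98.9% of the ELF3 list by −log10 q. On it, the summits of ELF3 and NFKB2 were 8 bp apart, 0.571 and 0.579 kb outside the edge where the gene starts. Those distances are less than the precision of that edge. The NFKB2 region, chr4:94939918-94942145, had 26 fragments (17.0 to 38.1). NFKB2 was therefore at 0.249 of ELF3 after adjustment for depth (0.155 to 0.386), the lowest ratio of the 22 shared pairs. The Jun window also held the 1 NFKB2 region without ELF3, chr4:94936314-94936581. It lay 0.419 kb past the other edge of the stretch, less than the precision of that edge, and had 9 fragments (4.12 to 17.1). That count is near the fewest at which NFKB2 regions were listed at the floor, 8. ELF3 was alone at chr4:94923672-94924111, with 46 fragments (33.7 to 61.4), and at a region with 16. In RefSeq GRCm38.p6 the lncRNA Junos lies within 20 kb of Jun.

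Junb, a JUN family member that can also restrain JUN, had the widest regions and the highest NFKB2 signal. A single ELF3 region of 7897 bp, chr8:85700967-85708863, and a single NFKB2 region of 7755 bp, chr8:85700995-85708749, covered the whole gene stretch; each was wider than 99.9% of its list. NFKB2 reached 75 fragments (59.0 to 94.0), above 99.1% of its list by −log10 q, and ELF3 50 (37.1 to 65.9). The ratio was 1.44 (0.991 to 2.10), with an interval that just took in equal signal. The summits were 2241 bp apart. That of ELF3 lay 0.558 kb inside the edge where the gene starts, less than the precision of that edge. That of NFKB2 lay 2.80 kb inside it, close to the opposite edge of the 3 kb stretch. All 5 ELF3 and 5 NFKB2 regions of this window were shared.

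The other Junb regions ranged from 18 to 67 ELF3 and from 13 to 39 NFKB2 fragments. At chr8:85715977-85717704 ELF3 had 67 fragments (51.9 to 85.1) and NFKB2 39 (27.7 to 53.3), over local backgrounds of 2.43 and 1.67 times the floor. At chr8:85710892-85713463 they were level, with 27 and 30, although the summits were 1204 bp apart. Rnaseh2a, Prdx2 and Hook2 lie within 20 kb of Junb in RefSeq GRCm38.p6.

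Atf3, a stress-induced bZIP factor that often acts as a repressor, had 5 ELF3 regions but only 1 NFKB2 region. Both factors lay near the edge where the gene starts. At chr1:190914625-190917972 ELF3 had 92 fragments (74.2 to 113) over 3348 bp, above 97.5% of its list by −log10 q, and NFKB2 had 30 (20.2 to 42.8) at chr1:190914672-190915928, above 91.7% of its own. The summits were 89 bp apart and lay 0.307 and 0.218 kb inside the edge of the stretch, less than the precision of that edge. The ratio was 0.312 (0.200 to 0.476). The 4 ELF3 regions without NFKB2 included chr1:190925763-190926504 with 48 fragments (35.4 to 63.6) and chr1:190935923-190937346, which ran over the window edge, with 36 (25.2 to 49.8). The other 2 had 23 and 6 fragments, the latter the fewest at which ELF3 regions were listed at the floor. Fam71a is the only other gene within 20 kb of Atf3 in RefSeq GRCm38.p6.

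Myc had 4 regions of each factor. A wide ELF3 region of 6617 bp, chr15:61854917-61861533, spanned 75.5% of the gene stretch with a summit of only 30 fragments (20.2 to 42.8) over a local background of 2.43 times the floor. It held 3 separate NFKB2 regions, at chr15:61855252-61856243 with 14 fragments, chr15:61857310-61857548 with 16 and chr15:61858558-61859947 with 20 (12.2 to 30.9). The first lay 21 bp from the ELF3 summit, and the others 2056 and 3629 bp from it. The ELF3 summit, at chr15:61855324, lay outside the stretch, which begins at chr15:61857001, by more than the precision of that edge. The first NFKB2 region also lay outside, 0.757 kb from the stretch, less than that precision. ELF3 was higher at chr15:61845998-61848100, 8.90 kb from the stretch, with 52 fragments (38.8 to 68.2) beside 14 for NFKB2 (7.65 to 23.5), and both summits fell on the same base. The remaining ELF3 regions had no NFKB2. That at chr15:61863162-61863931, with 16 fragments (9.15 to 26.0), began 0.161 kb past the edge of the stretch, less than the precision of that edge, and the other had 10 fragments. No other gene lies within 20 kb of Myc in RefSeq GRCm38.p6.

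Set side by side by fragments, the regions on the gene stretches put the genes in similar orders for the 2 factors, with Jun and Junb exchanged. For ELF3 the order was Jun (100), Atf3 (92), Junb (50), Myc (30), Fos (26) and Fosl1 (20). Jun and Atf3 did not differ beyond counting error (ratio 1.09, 0.811 to 1.46); Atf3 exceeded Junb (1.84, 1.29 to 2.65) and Junb exceeded Myc (1.67, 1.04 to 2.71). Neither Myc and Fos (1.15, 0.660 to 2.03) nor Fos and Fosl1 (1.30, 0.698 to 2.46) could be separated. For NFKB2 the order was Junb (75), Atf3 (30), Jun (26), Myc (20), Fos (12) and Fosl1 (10), taking the higher of the NFKB2 regions of Myc. The summit of the Myc ELF3 region lay outside the stretch, 3629 bp from the summit of that NFKB2 region, so the Myc values are from different places. Junb exceeded Atf3 (2.50, 1.62 to 3.96), and no later pair of neighbours could be separated. With 1 kb added to each side of the stretches Fos would stand at 21, above Myc, through its region 0.894 kb from the edge, and Fosl1 at 26 for ELF3, level with Fos. By the deposited fold, which takes in local background, both orders ended otherwise. For ELF3 the last were Fosl1 (9.44), Myc (7.79) and Fos (6.78), and for NFKB2 Myc (8.78), Fosl1 (4.61) and Fos (3.14). Each of these values is from 1 library.

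**Figure D2:**
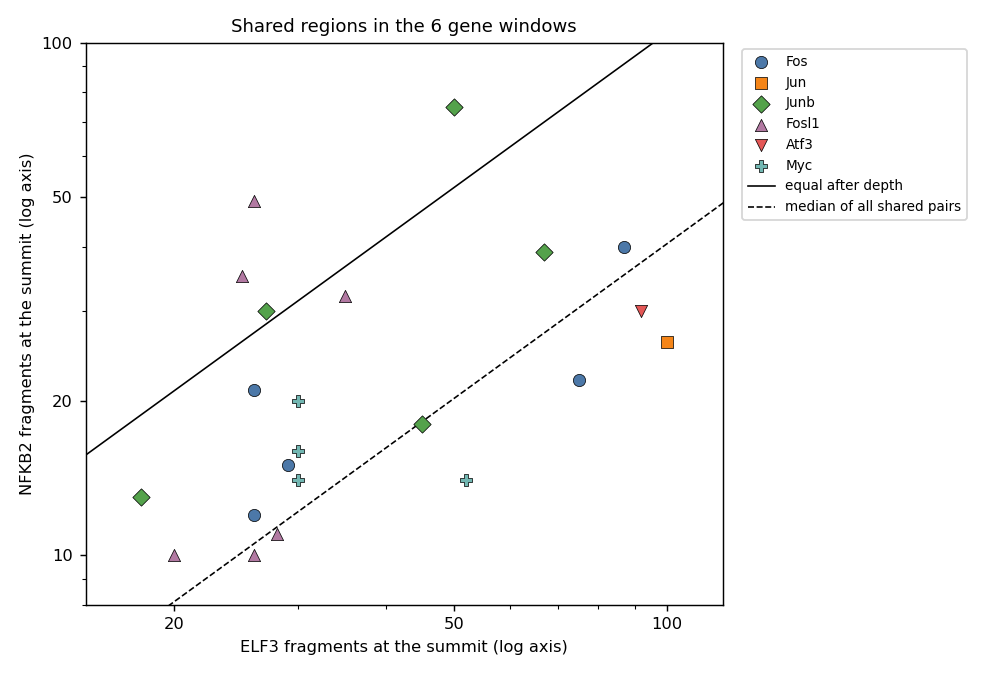
Fragments at the summit of each of the 22 shared NFKB2 regions (y axis, log scale) against those of the ELF3 region of most fragments it overlaps (x axis, log scale), with a marker per gene. The solid line is equal signal after adjustment for depth and the dashed line the median ratio of all 13769 shared pairs; 4 points lie above the solid line, from Junb and Fosl1, and Jun lies farthest to the right at 100 ELF3 fragments.

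Across the windows ELF3 was usually the stronger signal in a shared region, as in the whole lists, though by a smaller margin. The antibodies differ and their efficiency was not measured, so a ratio compares signal and not the amount of bound factor. The NFKB2 over ELF3 ratio had a median of 0.487 over the 22 pairs (quartiles 0.378 and 0.753) and of 0.388 over all 13769 (0.272 and 0.561), after division by a depth ratio of 1.04. NFKB2 was the higher one in 4 of 22 pairs, against 5.98% of all pairs, and was more than 2-fold lower in 12 of 22, against 68.4%. The 4 pairs were 2 of Junb, with ratios of 1.44 (0.991 to 2.10) and 1.06 (0.611 to 1.86), and 2 of Fosl1, with 1.80 (1.10 to 3.02) and 1.34 (0.780 to 2.34). By the deposited fold, which takes in local background, NFKB2 was higher in 6 of 22 pairs, against 5.96% of all pairs: these 4, a Fos pair (fold ratio 1.36, fragment ratio 0.773) and a Myc pair (1.13 and 0.638). The interval of the fragment ratio lay above 1 in 1 pair, the one near Fosl1 with 49 NFKB2 fragments, below 1 in 13 and across 1 in 8. By gene, the ratios ran from 0.281 to 0.773 for Fos, from 0.383 to 1.44 for Junb, from 0.368 to 1.80 for Fosl1 and from 0.258 to 0.638 for Myc, while Jun and Atf3 had 1 pair each. The 4 Myc pairs rest on 2 ELF3 regions and the 5 Fos pairs on 4, so pairs are not independent. Each factor is taken at its own summit, so a ratio does not always compare the same site. In the 2 Junb pairs above 1 the summits lay 2241 and 1204 bp apart, and in the 2 Fosl1 pairs 42 and 37 bp. The 5 pairs with summits more than 1 kb apart had ratios from 0.511 to 1.44, all above the median of the 22 pairs. How far they account for the smaller margin was not tested.

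**Figure D3:**
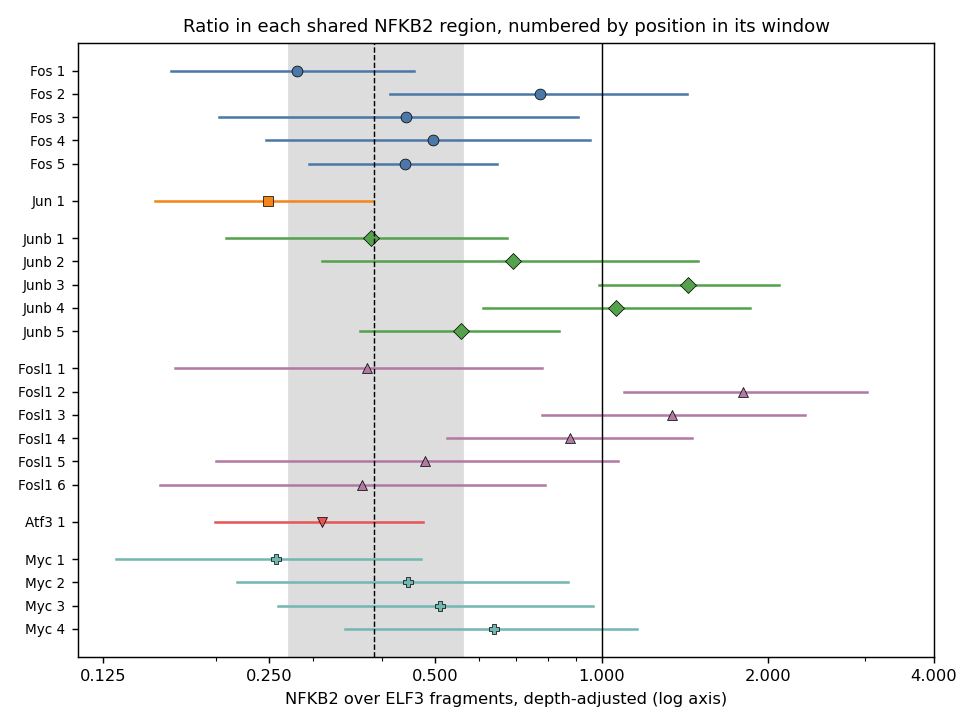
NFKB2 over ELF3 fragments, adjusted for depth (x axis, log scale), in each of the 22 shared NFKB2 regions, numbered by rising coordinate within its window (y axis). Bars are exact binomial 95% intervals for counting error, the grey band and dashed line are the quartiles and median of all 13769 shared pairs and the solid line is equal signal; only the second Fosl1 pair, at 1.80 (1.10 to 3.02), has its bar wholly above 1.

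The summits of the factors were close in most shared regions and far apart in several wide ones. They lay within 100 bp of each other in 14 of 22 pairs, against 75.5% of all pairs, and the median distance was 56.5 bp (quartiles 21.0 and 567) against 41 bp (16 and 98). The 5 pairs with more than 1 kb between summits belonged to the region on Fos, the regions on and beside Junb, and the region on Myc, which contributed 2. An ELF3 region with 2 or more NFKB2 regions was seen at Fos and Myc; 0.479% of all ELF3 regions held as many.

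Member regions were wide, and the wide ones carried most of the sharing. The median width was 1115 bp for ELF3 and 784 bp for NFKB2, against 418 and 329 bp in the whole lists. ELF3 regions of 1000 bp or more made up 18 of 30, against 20.9% of the list, and 9 of 23 NFKB2 regions were as wide, against 11.2%. Of the 18 wide ELF3 regions 16 were shared, against 42.9% of all ELF3 regions of that width, and of the 12 narrower ones 3 were, against 13.5%. The 19 shared ELF3 regions had a median of 30 fragments (18 to 100) and the 11 without NFKB2 a median of 23 (6 to 48), so the groups overlapped in signal. In fragments the member regions stood closer to the lists than in width, with a median of 27.5 against 22 for ELF3 and of 20 against 16 for NFKB2. Local background was at the floor for 20 of 30 ELF3 and 13 of 23 NFKB2 regions and did not exceed 2.43 times the floor in the others.

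The share of ELF3 regions with NFKB2 was lower farther from the genes. NFKB2 was present at 6 of 6 ELF3 regions on the gene stretches (54.1 to 100%), at 13 of 24 in the rest of the windows (54.2%, 32.8 to 74.4), at 14 of 45 in the next 50 kb on each side (31.1%, 18.2 to 46.6) and at 19.7% of the whole list. The intervals of neighbouring steps overlapped, and the first step was 7 of 8 with the stretches widened by 1 kb. Over the same steps ELF3 regions thinned from 146 to 100 and 75 per Mb, and NFKB2 regions from 171 to 66.7 and 23.3 per Mb. A wide region is more likely to reach a stretch of 3 to 14 kb, and the ELF3 regions on the stretches had a median width of 3738 bp, so position and width were not separated.

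**Figure D4:**
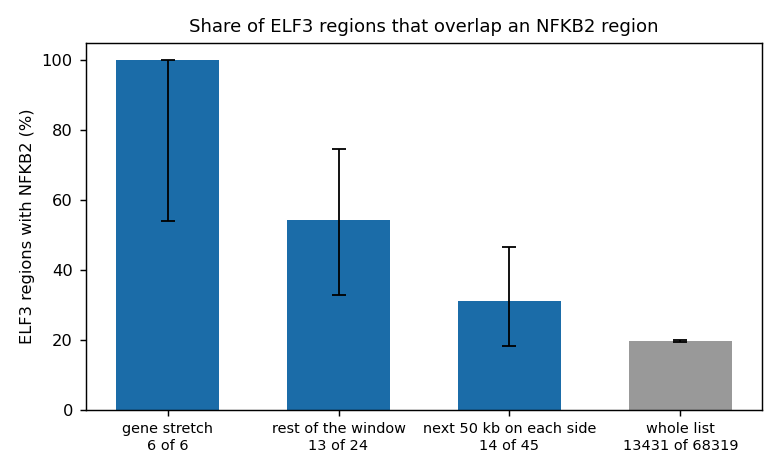
Percent of ELF3 regions that overlap an NFKB2 region (y axis, from 0) for regions on the 6 gene stretches, in the rest of the windows, in the next 50 kb on each side and in the whole list (x axis, with counts). Bars are shares and error bars exact binomial 95% intervals for counting error; the share goes from 6 of 6 to 54.2%, 31.1% and 19.7%.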

How the data were processed

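CUT&RUN regions of 2 libraries, grouped by the antibody in the labels, were used. Regions were called with MACS2 in 1 list per library, per the submitters' processing notes; neither its version and settings nor the aligner is stated there. Those notes name mm10, but the files hold 2 MU-type sequence names of GRCm39, so coordinates were kept as deposited. In the deposited lists the score is 10 times −log10 q. The fold deposited by the authors is a ratio, the signal at the summit over the local background, and the −log10 p and q deposited with it are those of the summit.

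Fragments and local background were solved from fold and −log10 p under the MACS2 Poisson model (Python 3.11.15, scipy 1.17.1; −log10 p within 0.01), which succeeded for all but 1 region of each list and was tested on simulated data. A fragment counted 1 for ELF3 and 0.964 for NFKB2, and a control fragment 0.993 and 1, which gives the depth ratio of 1.04 if both used the same control. Shared means an overlap of 1 bp or more; each shared NFKB2 region was paired with the overlapping ELF3 region of most fragments. Regions are not replicates, and no p-values are given. For each gene, the regions on or nearest to the gene stretch and those of most fragments are given in full, and any other region was picked for naming with its values in view. Members, lists and limits such as 1000 bp and 50 kb were chosen with earlier results of these data known. IgG regions and further immediate early genes, which need an annotation of the build, were not analysed here. Alternatives were −log10 q limits, window flanks, overlap definitions, list lengths, depth scaling and partners.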

Additional observations from a re-analysis of the deposited data

How the results depend on the processing

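Of 51 values recomputed under other settings, 44 stayed within 1.5 times the reported count or within the reported interval; leaving out 1 window at a time, the mean coverage ratio, the widened gene stretches and the count of pairs by fold were chosen after seeing the data. With 10 kb taken off each side of every window 19 ELF3 regions remained of 30, and with −log10 q of 10 or more 13 NFKB2 regions remained of 23; fewer can pass by construction. The NFKB2 share on ELF3, 95.7%, was 60.9% with summits within 100 bp, 34.8% with the ELF3 list cut to the length of the NFKB2 list, and 100% with both lists at −log10 q of 5 or more, at 10 or more, or with the Jun window left out, which holds the NFKB2 region without ELF3. The ELF3 share on NFKB2 ran from 46.7% (summits within 100 bp) to 80% (cut list) and stayed within its interval under all settings run. Among these settings, whole-list shares are given only for the cut list, 51.5% for ELF3 and 53.4% for NFKB2. For the other overlap definitions and the −log10 q limits, the difference from the whole list was not tested. The median ratio ran from 0.447 to 0.558, within the limits of 0.376 and 0.773 used for it. Those limits are ratios of single pairs and describe the spread over pairs, not counting error. Since pairs are not independent, they are a yardstick only. No paired analysis was possible because each antibody has 1 library. Weak binding can go unlisted: no region at the floor had fewer than 6 fragments for ELF3 or 8 for NFKB2.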

Other observations

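Beyond the windows, the strongest ELF3 signal within the next 50 kb was near Atf3. The region at chr1:190853125-190853323, 48.7 kb before the gene stretch on the side of lower coordinates, had 403 fragments (365 to 444) in only 199 bp, at a local background of 1.00 times the floor, and no NFKB2 region overlapped it. The highest region inside any window, on Jun, had 100 fragments over 4129 bp. This region was singled out after its values were seen.

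Listed regions outside the windows were few per gene, and differences between the genes were not tested. In the next 50 kb on either side Fos had 9 ELF3 regions of up to 41 fragments and 0 NFKB2 regions, against 5 NFKB2 regions inside its window. Fosl1 had 8 ELF3 and 5 NFKB2 regions outside its window, and 5 of those ELF3 regions were shared; over all 6 genes 14 of 45 were (31.1%), against 19.7% of the whole list. Jun had 11 and 2 regions, Junb 6 and 3, Atf3 8 and 3 and Myc 3 and 1. NFKB2 regions below the listing limit are not seen, so the 0 at Fos is a count of listed regions.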
